A study of Mus musculus with 2 samples.

Results

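The non-coding RNA genes expressed in mouse tongue were described in RNA-sequencing data of the circumvallate papillae (CvP), which hold the taste buds of the posterior tongue, and of the surrounding epithelium (Epi). The members were chosen by their annotation and by the measured values themselves: a row of the deposited gene table belonged to the set if its RefSeq accessions were of the non-coding kind only and its RPKM was 5 or more in at least 1 of the 2 libraries. RPKM is the number of reads per kilobase of exon model and per 1000000 mapped reads. The table held 18498 rows, of which 1039 were non-coding, and 132 of these, with 128 distinct symbols, reached the minimum. The other 907 stayed under it, including 109 with an RPKM of 0 in both libraries. The CvP library and the Epi library were each made from poly(A) RNA pooled from at least 20 male C57BL/6J mice of 12 to 30 weeks on a normal diet, and no genetic change or treatment was labelled for either group. There was thus 1 library per tissue and no replicate, so that no p-value was calculated, and every difference below is between these 2 libraries. In rows of 0.1 kb, the shortest length in the table, 1 read was worth 0.352 RPKM in the CvP and 0.358 RPKM in the Epi, which corresponds to an estimated 28411901 and 27960244 mapped reads. Where a CvP/Epi ratio is followed by limits, these are a 95% exact (Clopper-Pearson) interval from estimated reads. Such an interval covers counting error only. It may be too narrow even for that, since reads copied by PCR are not independent molecules.

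Non-coding RNA genes do their work as RNA and make no protein. Many long non-coding RNAs are transcribed, spliced and polyadenylated like mRNAs, and some long non-coding RNAs build nuclear bodies or bind splicing factors. Small nucleolar RNAs (snoRNAs), which guide the chemical modification of ribosomal RNA, and many microRNAs, which repress mRNAs by pairing of their seed with a target, are cut out of longer host transcripts. The mature small RNAs carry no poly(A) tail, so a value in one of their rows of a poly(A) library counts fragments that cover that interval, and host transcript and small RNA cannot be told apart. The members were therefore grouped, by name and by RefSeq's current entry, into 16 snoRNA host genes, 22 snoRNA rows, 22 microRNA rows, 32 pseudogenes, 30 other long non-coding RNAs and 10 genes that RefSeq now lists as protein-coding.

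Sequences are shown here for the members on which the later results turn. The first set gives the mature microRNAs, from RefSeq (GRCm38.p6), whose rows differed most between the libraries or lay in 1 cluster, with the seed (bases 2 to 8) in capitals.
miR-3064-5p: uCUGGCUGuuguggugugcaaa
miR-3064-3p: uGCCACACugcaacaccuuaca
miR-147-5p: uGGAAACAuuucugcacaaacuag
miR-711: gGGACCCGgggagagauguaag
miR-761: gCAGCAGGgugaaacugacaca
miR-762: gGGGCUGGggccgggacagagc
miR-23b-5p: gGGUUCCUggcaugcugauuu
miR-27b-3p: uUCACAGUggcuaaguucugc
miR-24-3p: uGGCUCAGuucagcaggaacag
miR-3074-5p: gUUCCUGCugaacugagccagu
A mature sequence was found for 18 of the 19 microRNA symbols, 23 sequences in all, and no seed was shared by any 2 of them. For *Mir147* and *Mir23b* only the 5p arm was found, so the seeds of their other arms are neither printed nor compared. The lines for miR-24-3p and miR-3074-5p come from opposite strands of the same locus, and 20 consecutive bases of one are the reverse complement of the other.

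The second set is of snoRNAs, read from NCBI37/mm9 at the listed intervals. The first 3 are H/ACA snoRNAs, with the ACA near the 3′ end in capitals, and the other 2 are C/D snoRNAs, with the C box (TGATGA) and the D box (CTGA) in capitals. They are shown because the first 4 had a CvP/Epi ratio whose interval lay above the ratio of the gene in which they lie, and because *Snord123* is inside the member with the highest ratio.
Snora64, chr17:24857734-24857850, plus strand: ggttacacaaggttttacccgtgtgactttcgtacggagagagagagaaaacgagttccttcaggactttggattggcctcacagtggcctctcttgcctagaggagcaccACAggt
Snora31, chr14:76247730-76247841, plus strand: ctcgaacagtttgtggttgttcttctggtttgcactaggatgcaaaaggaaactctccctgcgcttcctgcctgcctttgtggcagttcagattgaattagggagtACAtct
Snora70, chrX:71517831-71517959, plus strand: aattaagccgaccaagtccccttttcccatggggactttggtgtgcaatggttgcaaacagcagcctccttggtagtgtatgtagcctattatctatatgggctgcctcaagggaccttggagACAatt
Snord96a, chr11:48615535-48615611, plus strand: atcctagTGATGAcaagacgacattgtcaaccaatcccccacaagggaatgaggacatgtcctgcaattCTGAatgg
Snord123, chr15:32171600-32171687, minus strand: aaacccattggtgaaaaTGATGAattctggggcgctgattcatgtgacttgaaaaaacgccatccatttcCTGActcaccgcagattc
On the listed strand, ACA within the last 8 bases was present in 30 of 33 H/ACA rows of the table and in 9 of the 11 that were members. It was present in 3.03% of windows of the same length placed 500 bases before the rows. A TGATGA in the first 25 bases with a CTGA in the last 20 was present in 16 of 59 C/D rows, in 4 of the 11 members and in 0 of 59 such windows, of which a count of 0 says only that these letters were not there.

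Levels of the members were mostly low. In the CvP library their RPKM ran from 1.41 to 301 with a median of 10.1, and in the Epi library from 0.11 to 395 with a median of 7.78. The minimum was reached in both libraries by 90 members, in the CvP alone by 35 and in the Epi alone by 7. Just inside it were *1500011B03Rik* (5.01 in the CvP, 1.83 in the Epi), *Snord83b* (4.23 and 5.02) and *Snord4a* (2.82 and 5.02). Just outside were *D330041H03Rik* (4.99 and 1.36), a second row of *Gm5643* (4.97 and 4.8) and *Mir704* (4.93 and 4.30). In 62 members the RPKM was under 10 in both libraries, and in 7 it was above 100 in at least 1.

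The median CvP/Epi ratio of the members was 1.33 (log2 0.42), and 92 of 132 were higher in the CvP. This has to be read against the table as a whole, because over 10363 rows with an RPKM of at least 1 in both libraries the median ratio was 1.31 (log2 0.39). Among all 8465 rows with an RPKM of 5 or more in either library the median was 1.29 and 73.8% were higher in the CvP, against 69.7% of the members. More than 3-fold higher in the CvP were 9 members (6.82%), where the share of all 8465 rows was 9.24%. More than 3-fold higher in the Epi were 4 members (3.03%), where the share of all rows was 1.7%. A ratio within 2-fold in either direction was found for 98 of the members (74.2%) and for 77.5% of all 8465 rows. With counting error alone, the interval lay above 1 in 63 members, below 1 in 24 and held 1 in 45. Read against the table's median ratio, the interval lay above it in 40 members, below it in 45 and held it in 47. Such intervals are not given for all 8465 rows, so these counts do not show whether the members differed from the table.

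**Figure D1:**
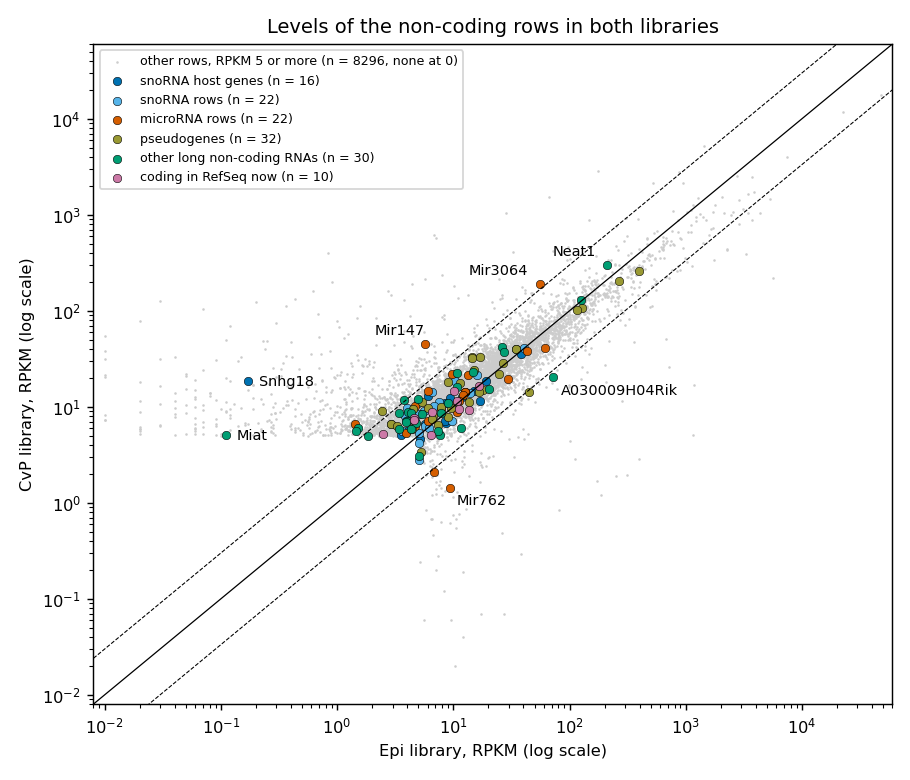
CvP RPKM (vertical, log scale) against Epi RPKM (horizontal, log scale) for the non-coding members, coloured by group, over the other rows with an RPKM of 5 or more in either library and above 0 in both (grey). The solid line marks equal values and the dashed lines 3-fold, and most members lie between the dashed lines while *Snhg18* and *Miat* stand far to the left.

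The tissues of the 2 libraries were checked with lists of cell type markers. All 9 taste cell markers were higher in the CvP, with a summed RPKM of 399.95 against 5.82, and *Kcnq1* and *Pkd2l1* were at 0 in the Epi. All 5 immune cell markers were also higher there and summed to 199 in CvP against 21.0 in Epi (*Cd3e* at 0), whereas of 7 markers of keratinized epithelium 1 was higher in the CvP, with sums of 33292 and 86340. Higher in the CvP were 0 of 5 skeletal muscle markers (sums of 2.57 and 37.4), 1 of 3 salivary gland markers (8.90 and 395) and 0 of 5 fibroblast markers (26.2 and 128, *Lum* at 0 in the CvP), and glia and nerve, endothelium and red blood cells summed to under 3 in both. Fewer cells of a type and less RNA per cell cannot be told apart in such tissue, and the part of these cells in the values of the members was not tested.

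The member with the highest ratio was *LOC100616095*, which RefSeq now calls *Snhg18*, a host gene of *Snord123*. It lies on chromosome 15 from 32170323 to 32174417 on the minus strand. Its RPKM was 18.6 (CvP) against 0.17 (Epi), a ratio of 109 (53.2 to 275). The row of *Snord123* inside it, itself too low to be a member, was at 4.23 RPKM in CvP against 0 in Epi, that is 12 reads and none. Host and snoRNA row were thus both higher in the CvP library. The listed start of *Snhg18* and that of the semaphorin gene *Sema5a*, an axon guidance gene on the other strand, are 150 bases apart and face away from each other. *Sema5a* had an RPKM of 12.0 (CvP) against 0.22 (Epi), a ratio of 54.4. The gap between the starts is shown because the genes on both sides differed in the same direction, with its CG dinucleotides in capitals.
Between Snhg18 and Sema5a, NCBI37/mm9 chr15:32174418-32174567, plus strand: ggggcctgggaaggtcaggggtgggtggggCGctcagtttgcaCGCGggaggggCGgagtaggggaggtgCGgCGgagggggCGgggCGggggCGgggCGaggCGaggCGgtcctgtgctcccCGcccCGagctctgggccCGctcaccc
It holds 15 CG on each strand, and 36.1% of windows of this length before the listed start of 8251 coding rows with an RPKM of 5 or more hold as many, with a median of 12. *Sema5a* is no member and was named after its value was seen.

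*Miat*, a long nuclear RNA known from neurons and retina and as a binder of the splicing factor SF1, had the second highest ratio. Its RPKM was 5.11 (CvP) against 0.11 (Epi), a ratio of 46.5 (31.7 to 70.6), so that it reached the minimum through the CvP alone. With so low an Epi value the ratio depends on the pseudocount, and it was 24.8 with 0.1 and 5.50 with 1 added to both values, where that of *Snhg18* was 69.2 and 16.7. The RNA is known for copies of TACTAAC, the sequence of the intron branch point. In the listed interval of *Miat* (15721 bases, introns included) the motif was found 6 times on the transcribed strand, or 0.382 per kb, the highest density among 56 long members, followed by *Gt(ROSA)26Sor* at 0.306 per kb. The stretch with most copies is printed with each copy in capitals.
Miat, NCBI37/mm9 chr5:112646339-112646538, minus strand: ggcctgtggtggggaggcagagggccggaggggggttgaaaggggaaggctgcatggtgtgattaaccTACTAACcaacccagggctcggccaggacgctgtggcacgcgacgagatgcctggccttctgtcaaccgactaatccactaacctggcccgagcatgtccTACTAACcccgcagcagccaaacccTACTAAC
This stretch of 200 bases was placed to hold the most copies, and it holds 3. The other long members were cut end to end into 2211 stretches of that length, placed without regard to the motif. Of these 14 (0.633%) held at least 1 and 0 held 3. Since only the stretch of *Miat* was chosen for its copies, these counts are not like for like.

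**Figure D2:**
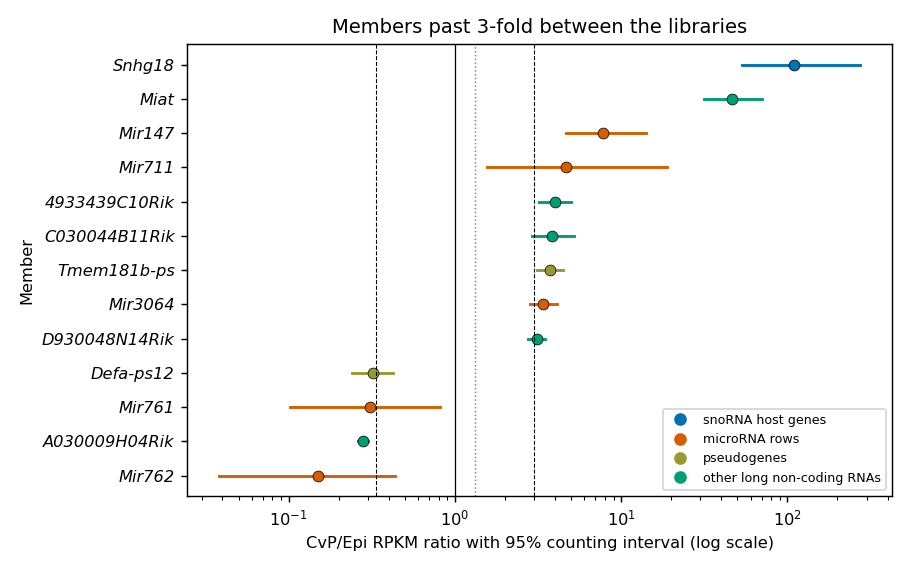
CvP/Epi RPKM ratio (horizontal, log scale) of the 13 members past 3-fold, with bars for the 95% exact counting interval. The solid line marks 1, the dotted line the median ratio of the table and the dashed lines 3-fold, and the bars of *Snhg18* and *Miat* lie well to the right of the others.

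Of the other 7 members past 3-fold toward the CvP, 3 were microRNA rows, described below, 3 were long RNAs and 1 was a pseudogene. *4933439C10Rik* had an RPKM of 6.04 (CvP) against 1.51 (Epi), a ratio of 4 (3.22 to 5.01). It lies opposite the zinc finger gene *Zkscan17*. *C030044B11Rik*, now *Fam120aos*, had values of 5.59 and 1.45 and a ratio of 3.86 (2.90 to 5.24). Its listed start is 283 bases from that of *Fam120a* on the other strand, a coding gene at 54.9 RPKM in CvP against 27.5 in Epi. *D930048N14Rik*, which lies opposite *N4bp3*, had values of 11.8 and 3.79 and a ratio of 3.11 (2.76 to 3.51). The pseudogene *Tmem181b-ps* had values of 9.04 and 2.42 and a ratio of 3.74 (3.14 to 4.45). These 4 were at 3.79 RPKM or less in the Epi, and their lower limits ran from 2.76 to 3.22. When each ratio was divided by the table's median of 1.31, 5 members were past 3-fold toward the CvP. Like *Miat*, *Snhg18*, *4933439C10Rik*, *Fam120aos*, *D930048N14Rik*, *Tmem181b-ps* and *Mir711* reached the minimum through the CvP alone. *Mir761* and *Mir762*, described below, reached it through the Epi alone. Such rows were chosen for being high in that library, and their intervals do not allow for this choice.

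Among the 4 members past 3-fold toward the Epi, the narrowest interval was that of *A030009H04Rik*. Its RPKM was 20.4 (CvP) against 72.4 (Epi), a ratio of 0.281 (0.263 to 0.301), or 3.55-fold higher in the Epi (3.32 to 3.80). RefSeq's name for this entry is now *Rnf227*, with *Chd3os* among its synonyms. The row lies on chromosome 11 from 69154271 to 69156149 on the plus strand, and its end is 625 bases from the end of the chromatin remodeler gene *Chd3* on the minus strand. *Chd3* was at 24.3 RPKM in CvP against 4.48 in Epi, a ratio of 5.43 (5.05 to 5.83). The convergent neighbours therefore differed in opposite directions, each beyond its counting interval. *Defa-ps12*, a defensin pseudogene, was at 14.3 RPKM in CvP against 44.6 in Epi, 3.12-fold higher in the Epi (2.36 to 4.17). The coding defensin rows on either side of it, *Defb4* (991 and 2469) and *Defb6* (3.27 and 17.2), were also higher in the Epi. *Chd3*, *Fam120a*, *Defb4* and *Defb6* were named after their values were seen.

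The long RNAs *Neat1*, *Malat1*, *Norad*, *Tug1*, *Oip5os1* and *Firre* were 1.36-fold to 2.13-fold higher in the CvP. The median ratio of the table was 1.31. *Neat1*, the scaffold of paraspeckles, was the highest member in the CvP, with an RPKM of 301 against 209 in the Epi and a ratio of 1.44 (1.41 to 1.47). Its listed row spans only the short form. *Malat1*, an RNA of nuclear speckles and the neighbour of *Neat1* on chromosome 19, was at 37.2 RPKM in CvP against 27.3 in Epi, a ratio of 1.36 (1.31 to 1.41). *Malat1* is known to end not in an added tail but in an A-rich tract of its own gene that folds with 2 U-rich stretches, and this element is printed with the 3 stretches in capitals.
Malat1, NCBI37/mm9 chr19:5795980-5796072, minus strand: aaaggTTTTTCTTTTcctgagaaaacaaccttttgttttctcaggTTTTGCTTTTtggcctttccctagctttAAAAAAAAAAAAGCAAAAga
This element lies 292 bases before the listed end of the row. Within the last 500 bases of the 87 other long members, the first of the U-rich stretches printed was found on the transcribed strand in 2 (2.30%) and the A-rich tract in 0. The search was for the exact letters of *Malat1*, and the end of the long form of *Neat1* lies outside its listed row. These counts therefore do not show whether other RNAs have a similar element.

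*Norad* (listed as *2900097C17Rik*), a cytoplasmic decoy of Pumilio proteins, was at 42.3 RPKM in CvP against 25.99 in Epi, a ratio of 1.63 (1.56 to 1.70). *Tug1*, a nuclear and cytoplasmic RNA first found as taurine upregulated, was at 22.9 and 14.9, with a ratio of 1.54 (1.46 to 1.63). *Oip5os1* (listed as *1700020I14Rik*), also called Cyrano and known for the destruction of miR-7, was at 15.99 and 10.7, with a ratio of 1.497 (1.41 to 1.59). *Firre* (listed as *6720401G13Rik*), an X-linked RNA that holds chromosome regions together in the nucleus, was at 22.7 and 10.7, with a ratio of 2.13 (1.87 to 2.42). The lower limits of *Neat1*, *Norad*, *Tug1*, *Oip5os1* and *Firre* ran from 1.41 upward and lay above the table's median ratio, and that of *Malat1* exceeded it barely (1.315 against 1.313). *Gt(ROSA)26Sor*, the locus widely used for transgenes, was at 6.88 RPKM in CvP against 3.90 in Epi, a ratio of 1.76 (1.28 to 2.47), and lies opposite *Thumpd3*.

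In the lists of named RNAs, the nuclear architecture and X-inactivation list had 3 members of 7 rows and the developmental and regulatory list 4 of 12. All 7 were higher in the CvP, with *Miat* past 3-fold, where 73.8% of all rows with an RPKM of 5 or more were higher there. Of 14 antisense rows named as such 1 was a member, *Ppifos*, at 8.69 RPKM in CvP against 7.76 in Epi. Of 9 imprinted rows none was. Hosts of microRNAs among the members were *Mir22hg* (listed as *2210403K04Rik*), at 10.8 and 9.07, and *Mir100hg* (listed as *2610203C20Rik*), at 8.53 and 4.28, with ratios of 1.20 (1.05 to 1.36) and 1.99 (1.76 to 2.26). Some long members were higher in the Epi. *D630041G03Rik*, which lies opposite *Eps8l1*, was at 5.95 RPKM in CvP against 11.5 in Epi, a ratio of 0.516 (0.467 to 0.569). *B230206H07Rik*, which lies opposite its relative *Eps8l2*, was at 15.2 and 20.1, a ratio of 0.754 (0.700 to 0.812).

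The snoRNA host genes make spliced transcripts whose introns hold the snoRNAs. Of 18 rows in the list 15 were members, and *Snhg20* (listed as *2810008D09Rik*) made 16. Apart from *Snhg18* and *Snhg20* their levels were within 2-fold of each other in the 2 libraries. *Gas5*, the best known of them, was at 40.4 RPKM in CvP against 34.9 in Epi, a ratio of 1.16 (1.10 to 1.22). *Snhg1* was at 35.6 and 37.9, a ratio of 0.941 (0.888 to 0.996). These were the only host genes with an RPKM above 20 in either library. *Snhg6* had the lowest ratio of the group, 0.681 (0.542 to 0.855), at 11.5 RPKM in CvP against 16.9 in Epi. *Snhg20* had the second highest, 2.11 (1.66 to 2.70), at 12.9 and 6.09. The others of the group had ratios from 0.781 for *Dancr* (listed as *2700023E23Rik*) to 1.44 for *Snhg16* (listed as *1810032O08Rik*). The median ratio of the 16 was 1.10, below the 1.31 of the table, 9 were higher in the CvP (56.2%, against 73.8% of all rows with an RPKM of 5 or more), and 14 were within 2-fold (87.5%, against 77.5%).

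**Figure D3:**
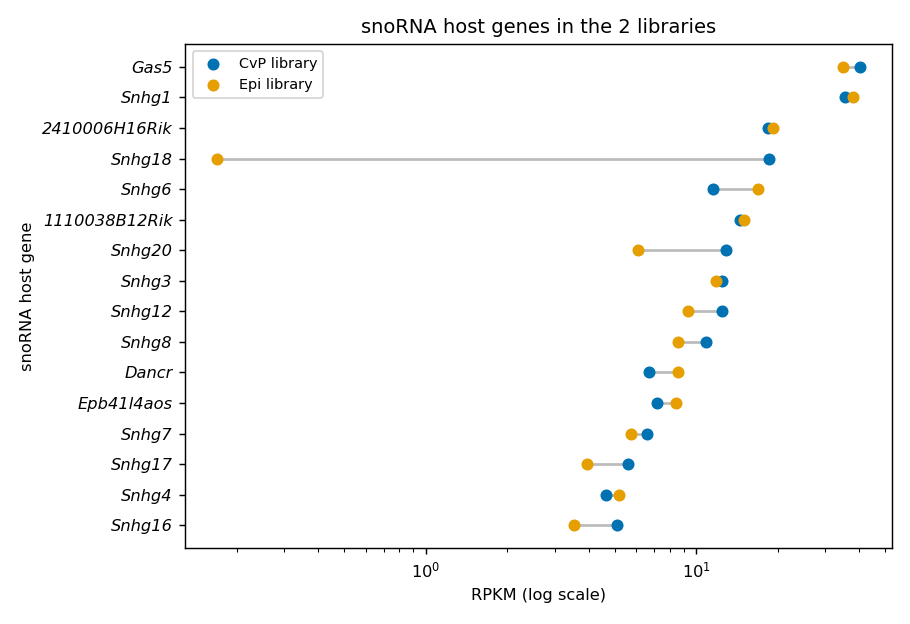
RPKM (horizontal, log scale) of the 16 snoRNA host genes in the CvP library (blue) and the Epi library (orange), joined by a grey line for each gene. In all but *Snhg18* and *Snhg20* the 2 points lie within 2-fold of each other.

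Many snoRNA host genes belong with the ribosomal protein genes to the class known as 5′ terminal oligopyrimidine genes, whose transcripts begin with a C followed by a run of C or T. The first 20 bases at the listed start of the 4 that began with C and 4 further C or T are printed, with that run in capitals.
Gas5, NCBI37/mm9 chr1:162965297-162965316, plus strand: CTTTCggagctgtgcggcat
Snhg6, NCBI37/mm9 chr1:9934180-9934199, minus strand: CTTTCTCggcagcgccgtag
Snhg8, NCBI37/mm9 chr3:123211235-123211254, minus strand: CTCTTTggctgcgatccgcc
Snhg7, NCBI37/mm9 chr2:26495745-26495764, minus strand: CTCTCggcagccatggcggc
With 1 more that is not shown, 5 of 16 host genes (31.2%) began so, against 15 of 88 ribosomal protein rows (17.0%), 2.44% of 8251 coding rows and 3 of 30 other long members. The listed starts are annotated starts and may differ by bases from those used in the tongue.

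The table held 92 snoRNA rows, of which 22 were members, and 6 were at 0 in both libraries. The highest, *Snora3*, lies in the ribosomal protein gene *Rpl27a* and had an RPKM of 41.1 (CvP) against 40.5 (Epi). For 21 of the 22 a host row was found, 16 in rows with a coding accession and 5 in *Snhg1*, *Gas5*, *Snhg12* and *1110038B12Rik*. These 21 lay outside exons of coding transcripts of the same strand, although *Snord4a* lies opposite an exon. Each had a lower RPKM than its host in the CvP, at a median of 13.8% of it (1.84% to 60.5%), and at 7.56% of it in the Epi. The hosts with a coding accession are mostly genes of ribosomal proteins and translation factors. Their median ratio was 0.785 and that of their snoRNA rows was 1.55, where the median of the table was 1.31.

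The snoRNA row had a higher CvP/Epi ratio than its host in 18 of 21 cases. In 7 of them the host's ratio lay below the interval of the snoRNA row, and in none above it. The widest gap was that of *Snora31*, printed above, at 6.61 RPKM in CvP against 2.88 in Epi, a ratio of 2.30 (1.01 to 5.69). Its host *Tpt1*, a translationally controlled protein gene, was at 199.7 and 406, a ratio of 0.492. *Snora64* was at 9.64 and 3.98, a ratio of 2.42 (1.24 to 5.03), in *Rps2*, which was at 435 and 625. *Snora70* was at 10.9 and 5, a ratio of 2.19 (1.23 to 4.05), in *Rpl10*, which was at 144 and 156. *Snord96a* was at 18.7 and 10.4, a ratio of 1.80 (1.12 to 2.93), in the ribosomal scaffold gene *Gnb2l1*, which was at 466 and 611. Host and snoRNA row thus stood on opposite sides of 1 in these 4. The interval of each of the 4 snoRNA rows held the table's median ratio of 1.31, and the host's ratio lay below it. In *Snora81*, by contrast, at 14.4 and 6.56 with a ratio of 2.20 (1.41 to 3.50), the host *Eif4a2* had a ratio of 1.996. The exceptions, with ratios under the host's, were *Snord2*, *Snord4a* and *Snord83b*.

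Single snoRNA rows rest on few reads, 9 in the Epi for *Snora31*, and rows that reach the minimum in 1 library alone are chosen for being high there. Summed over the 21 members with a host the ratio of reads was 1.38 (1.23 to 1.54). Over all 87 snoRNA rows with a host, whatever their level, it was 1.41 (1.28 to 1.55), and the median ratio of the hosts was 0.913. Both of these intervals held the table's median ratio of 1.31, and the median of the hosts lay below it. Among 82 of these with at least 1 read, 65 had a ratio above the host's. GENCODE M1 lists transcripts with a retained intron over several of the snoRNAs, among them *Snora3*, *Snora64*, *Snora70*, *Snora81* and *Snord96a*. Whether the reads came from such transcripts, from unspliced RNA or from snoRNA cannot be told apart, and the part of each was not tested.

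**Figure D4:**
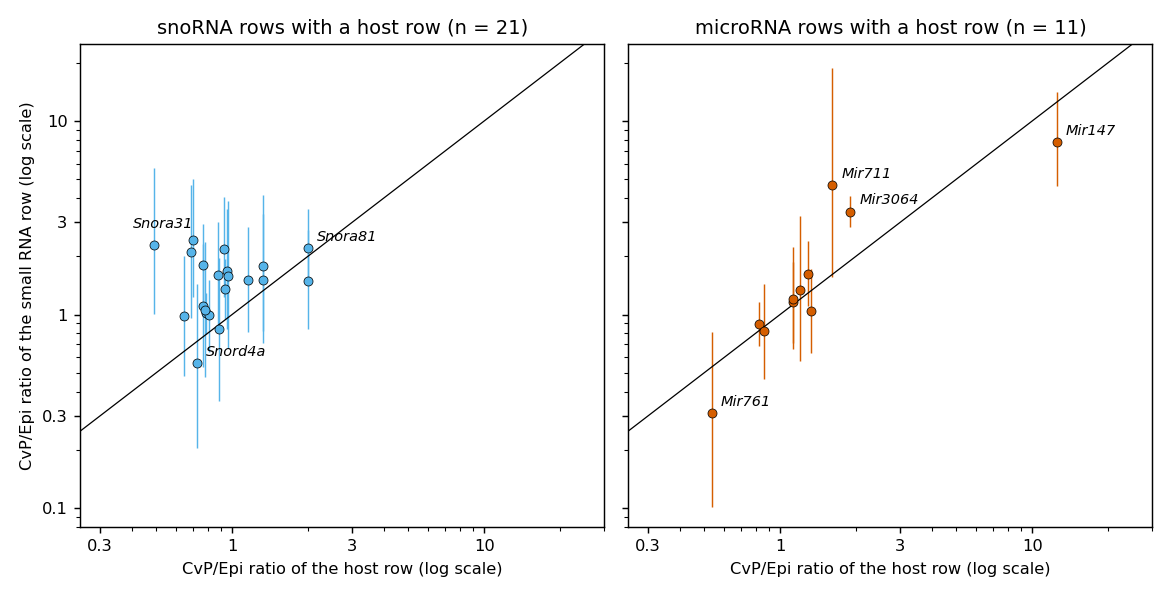
CvP/Epi ratio of small RNA rows (vertical, log scale, with the 95% exact counting interval) against that of the gene row in which each lies (horizontal, log scale), for 21 snoRNA rows (left) and 11 microRNA rows (right). The line marks equal ratios, and 18 of the snoRNA points but 7 of the microRNA points lie above it.

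MicroRNA rows were 22 of the 178 in the table, of which 47 were at 0 in both libraries. Of the 11 with a host row, the host's ratio fell outside the counting interval of the microRNA row in 1. The exception was *Mir3064*, the highest microRNA row, at an RPKM of 191 (CvP) against 56.2 (Epi), a ratio of 3.41 (2.84 to 4.09). It lies in *Ddx5*, an RNA helicase gene that was at 276 RPKM in CvP against 145.5 in Epi, a ratio of 1.90. Coding transcripts of GENCODE M1 cover 1.49% of the interval with exons, and it lies within an exon of *Ddx5-002*, a transcript of the nonsense-mediated decay class. The row of the microRNA thus reached 69.2% of the host's RPKM in the CvP but 38.6% in the Epi.

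*Mir147* was at 44.8 RPKM in CvP against 5.73 in Epi, a ratio of 7.81 (4.63 to 14.1). All of it lies in an exon of the coding gene *AA467197*, which was at 46.9 and 3.75, a ratio of 12.5 that fell within that interval. The row was at 95.5% of its host's RPKM in the CvP but at 152.8% of it in the Epi. *Mir711* was at 6.69 and 1.43, a ratio of 4.68 (1.55 to 18.9) from 19 and 4 reads, and 43.9% of it lies in an exon of *Col7a1*, the anchoring fibril collagen, at 10.2 and 6.32. Toward the Epi, *Mir762* was at 1.41 RPKM in CvP against 9.32 in Epi, 6.61-fold higher in the Epi (2.29 to 26.04) from 4 and 26 reads. All its bases are also on the other strand of coding transcripts of *Bcl7c*. *Mir761*, in the protease gene *Nrd1* (67.6 and 126), was at 2.11 and 6.81, 3.23-fold higher in the Epi (1.24 to 9.84) from 6 and 19 reads. Of these 5 microRNA rows only *Mir147* kept an interval wholly past 3-fold.

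The cluster of *Mir23b*, *Mir27b* and *Mir24-1* on chromosome 13, with 1 mature arm of each printed above, was expressed without a host row over it. *Mir27b* was at 14.5 RPKM in CvP against 6.09 in Epi, a ratio of 2.37 (1.32 to 4.46). *Mir24-1* was at 10.2 and 4.66, a ratio of 2.19 (1.11 to 4.6). *Mir23b* was at 7.05 and 6.09, a ratio of 1.16 (0.576 to 2.35). *Mir3074-1*, the row on the other strand of *Mir24-1*, was at 21.9 and 9.68, a ratio of 2.26 (1.42 to 3.69), so that values of 1 locus appeared under both strands. The gene upstream on the same strand, *2010111I01Rik*, was at 16.7 and 9.32, a ratio of 1.79, within the interval of each of these 4 rows.

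Some microRNA rows share sequence with coding transcripts. A stretch of 40 bases or more in common with a coding transcript of GENCODE M1, on the sense strand, was found in 12 of the 22 rows. In 7 rows, *Mir147* and *Mir761* among them, the match was with the gene in whose exon the row lies. None of the 22 snoRNA rows had such a stretch. Those with a host lie outside its coding exons, so a match with the host's spliced transcript was not to be found. *Mir684-1* was listed at 4 places, on chromosomes 2 and 16 and at 2 places of chromosome 11, with an RPKM of 14.4 (CvP) against 12.5 (Epi) at 3 of them and of 13.4 and 12.1 at the fourth place. Over the 85 bases compared the 4 copies are identical, and they are also part of the coding transcript of *Sumo2*, a ubiquitin-like modifier gene at 45.6 and 40.5. Its ratio of 1.13 is close to the 1.15 of the copies.
Mir684-1, NCBI37/mm9 chr11:115384446-115384530, minus strand: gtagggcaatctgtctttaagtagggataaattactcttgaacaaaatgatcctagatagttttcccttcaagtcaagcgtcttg
*Mir703*, the microRNA row with the second highest value, was at 41.1 RPKM in CvP against 61.5 in Epi, a ratio of 0.668 (0.529 to 0.842), and 11 of its 70 stretches of 40 bases are found in *Eef1a1*, the translation elongation factor gene, whose ratio of 0.926 lay outside that interval. *Mir682*, at 19.7 and 29.3 with a ratio of 0.672 (0.470 to 0.956), shares 17 of 57 with the ribosomal protein gene *Rpl37a*, whose ratio was 0.696. How the authors' counting shared reads between such copies is not given in the sources used here, and the values of these rows are uncertain.

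The same holds for the pseudogenes, which are copies of coding genes without a working reading frame. Of 32 pseudogene members 21 overlapped a coding row. RefSeq's current entry places 12 of them on another chromosome than the table does, and all 12 lay, in the table, on a coding row of the same strand, in most cases that of the gene whose pseudogene they are described as. Of the 4 highest pseudogene rows 3 are of this kind. *Gm15772*, listed on *Rpl26*, was at 204 RPKM in CvP against 265 in Epi, a ratio of 0.769 (0.737 to 0.802), and *Rpl26* had a ratio of 0.779. *Gm12191*, listed on *Rpl30*, had a ratio of 0.831 at 107 and 128, and *Rpl30* one of 0.832. *Atp6v0c-ps2*, listed on the proton pump gene *Atp6v0c*, had a ratio of 0.876 at 102 and 117, and *Atp6v0c* one of 0.893. Levels differed more than ratios did, with *Rpl30* at 49.4 and 59.4.

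In 10 of these 12 rows the log2 ratio was within 0.1 of that of the coding row, with a median gap of 0.02. The 2 others were *Gm6793* on *Hnrnpa3* (ratios of 0.820 and 1.43) and *Gm7367* on *Fam100b* (1.16 and 0.970). In the remaining 9 overlaps the gap was within 0.1 in 1. *Tpt1p*, the row with the highest RPKM in the Epi of all members, was at 258 RPKM in CvP against 395 in Epi, a ratio of 0.654 (0.639 to 0.670), and is listed opposite *Tpt1*, with its ratio of 0.492. The reads of pseudogene and parent cannot be told apart in these rows.

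**Figure D5:**
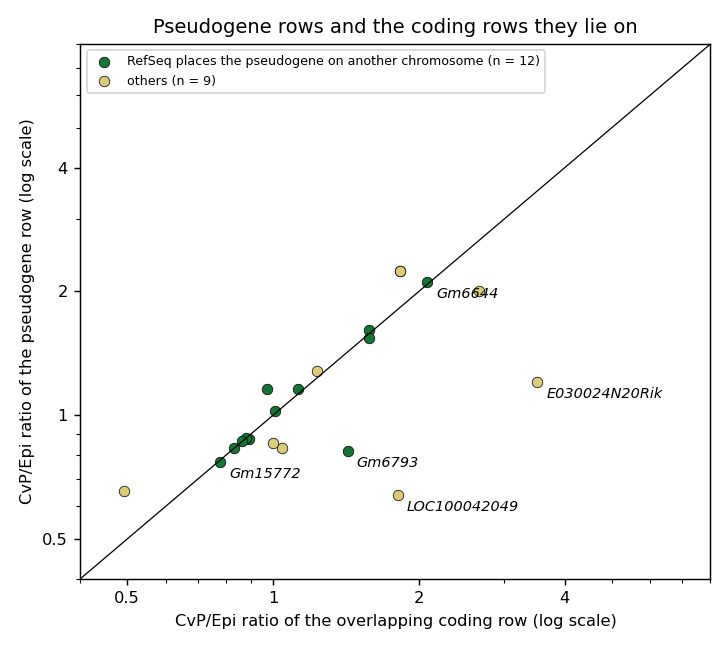
CvP/Epi ratio of 21 pseudogene rows (vertical, log scale) against that of the coding row on which each lies (horizontal, log scale), with the line of equal ratios. The 12 rows that RefSeq places on another chromosome (green) lie within a log2 difference of 0.1 of the line, apart from *Gm6793* and *Gm7367*.

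Some pseudogene rows lay on no coding row of the same strand, and whether their reads came from them or from copies elsewhere was not tested. *Pisd-ps2*, a copy of the phosphatidylserine decarboxylase gene, was at 11.1 RPKM in CvP against 5.35 in Epi, a ratio of 2.08 (1.95 to 2.22). Its relatives *Pisd-ps1* (32.3 and 14.4, ratio 2.24) and *Pisd-ps3* (32.7 and 14.5, ratio 2.25) are listed over nearly the same bases of chromosome 11, opposite *Sfi1*, and are not independent of each other. *6820431F20Rik* appeared in 2 rows of chromosome 8, at 32.6 and 17.0 and at 9.68 and 6.05, with ratios of 1.92 and 1.6. *Sprr2g*, of the small proline-rich proteins that build the cornified envelope, was at 6.45 and 7.43, a ratio of 0.868 (0.672 to 1.12).

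Genes that RefSeq has since moved to the coding class had 10 rows, of which 9 were within 2-fold, as were 77.5% of all rows with an RPKM of 5 or more. Several encode small proteins. *Mtln* (listed as *1500011K16Rik*), a mitochondrial micropeptide, was at 9.57 RPKM in CvP against 11.3 in Epi, a ratio of 0.848 (0.707 to 1.02). *Nbdy* (listed as *2210013O21Rik*), a micropeptide of the mRNA decapping complex, was at 8.85 and 6.49, a ratio of 1.36 (1.09 to 1.70). *Smim4* (listed as *2010107H07Rik*), a small membrane protein of mitochondria, was at 5.24 and 2.49, a ratio of 2.10 (1.35 to 3.29). The highest of the 10, *1810058I24Rik*, was at 16.4 and 16.7 and did not differ beyond its interval (0.904 to 1.06).

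Over the whole set, 64 members overlapped a coding row of the table, 47 on the same strand and 17 on the opposite strand only, and 6 of the 7 members above an RPKM of 100 were among them. *LOC624853*, for example, at 129.5 RPKM in CvP against 126 in Epi, lies on the chaperone gene *Hspa8*. *Neat1* was the exception. The median ratio was 1.16 for the members with an overlap and 1.36 for the 68 without. Of the 9 members past 3-fold toward the CvP 4 had no overlap, and of the 4 toward the Epi 2. Neither the kit nor the counting was stated to use strand, so that reads of members on opposite strands cannot be told apart from those of the coding gene.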

How the data were processed

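Poly(A) RNA of the CvP and of the Epi was sequenced by the authors as 1 pooled library each (single-end reads of 75 bases), mapped with Bowtie 0.12.7 to NCBI37/mm9 and summarised as RPKM with ERANGE. The deposited table gives RPKM values per row, a gene length, positions and the authors' CvP/Epi ratio, and this last column was not used. Members and lists were chosen with earlier results of these data known.

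Depth was taken from the step between RPKM values in 163 rows of 0.1 kb. Reads per row were estimated from the shortest of the listed length, the listed span and the longest matching GENCODE M1 transcript, and not less than 0.1 kb. In small rows with a longer listed length, the span gave whole reads (within 0.1) in 92.1% of CvP values and the listed length in 23.7%. Ratios had no pseudocount and were given exact (Clopper-Pearson) intervals at 95%. With 1 library per tissue no test was possible. Members described were those in the first 6 lists of named RNAs, the 20 highest, the 10 with the highest and the 10 with the lowest ratio, and those next to the minimum (85 in all), and others were named after their values were seen. Positions of microRNA rows matched RefSeq hairpins in 18 of 18. RefSeq names were found for 130 of 132 rows by accession or gene ID. Methods were tested on simulated data, of which no result is given here. Python 3.11.15, numpy 2.4.6, pandas 2.3.3, scipy 1.17.1 and matplotlib 3.10.9 were used.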

Additional observations from a re-analysis of the deposited data

How the results depend on the processing

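The median log2 ratio of the members stayed above 0 in every alternative run. It was 0.56 at a minimum RPKM of 1, 0.21 at minimums of 10 and 20, 0.0228 when ratios were divided by the table's median and 0.0181 by its trimmed mean, and 0.69 with RPKM rescaled to a sum of 1000000 per library. Members numbered 388, 259, 70 and 31 at minimums of 1, 2, 10 and 20, and 68 without those overlapping a coding row. Members past 3-fold toward the CvP numbered 65, 30, 4 and 2 at those minimums, 4 without overlaps, 5 with a pseudocount of 1, 5 under either of those divisions and 5 where the interval's limit had to pass, and toward the Epi 10, 2 and 2 at minimums of 1, 10 and 20, 2 without overlaps, 2 with that pseudocount, 1 after rescaling and 1 by the interval's limit. At 2-fold, 5-fold and 10-fold there were 30, 3 and 2 toward the CvP, and at 5-fold and 10-fold 1 and 0 toward the Epi. The share of all rows is given above only for 3-fold at the minimum RPKM of 5. The counts at other settings therefore describe the members alone and are not set against the table as a whole. Of the 85 named members, 16 changed sides of 1 under the first of those divisions and 11 after rescaling, none of them past 3-fold. Among the same 85, rescaling kept 10 past 3-fold in either direction, lost 3 and gained 1. The count of all members past 3-fold toward the CvP after rescaling is not given here. Intervals from the listed length excluded 1 in 51 of the 85 and in 50 as reported. No paired analysis was possible because there was only 1 library of each kind. The depth limits rows of few reads most, and no interval covers variation between mice.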

Other observations

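RNAs of the lists that stayed under the minimum are given here as values. Of the imprinted RNAs, which are made from 1 parental copy of a locus, *Peg13* came nearest to it, at 4.25 RPKM in CvP against 0.88 in Epi, a ratio of 4.83 (3.96 to 5.97). *H19* was at 1.84 RPKM in CvP against 3.57 in Epi, a ratio of 0.515 (0.412 to 0.649), and its imprinted partner *Igf2*, a growth factor gene, was at 0.05 and 0.09. *Meg3* was listed at 0 in the CvP and at 0.04 in the Epi, and its partner *Dlk1* at 0 and 0.02. *Airn* was at 1.26 and 0.82 and *Kcnq1ot1* at 0.18 and 0.08. *Xist*, the RNA that silences an X chromosome in females, was at 0.06 and 0.01 in these libraries of male mice.

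*Sox2ot* stayed just under the minimum at 4.17 RPKM in CvP against 0.31 in Epi, a ratio of 13.5 (8.94 to 20.7). Its row spans the gene of the transcription factor *Sox2* on the same strand, which was at 82.0 RPKM in CvP against 19.1 in Epi, a ratio of 4.29 (4.04 to 4.56), so the reads of the 2 cannot be told apart where they overlap. *Mir17hg*, the host of the miR-17 cluster, was at 4.52 and 3.28, a ratio of 1.38 (1.15 to 1.64). Of the snoRNA host genes *Snhg10* was at 1.66 and 0.34, a ratio of 4.88 (1.85 to 16.5), and *Snhg9* at 0.39 and 0.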
